A study of Mus musculus with 2 samples.

Results

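Semaphorins are secreted and membrane-bound guidance proteins, and plexins are their transmembrane receptors. Neuropilins are co-receptors that give most secreted class 3 semaphorins access to class A plexins. On binding, the cytoplasmic part of a plexin acts on small GTPases and on the cytoskeleton, so that a growth cone turns or collapses or a migrating cell changes course. In the embryonic hindbrain these proteins are known for guiding cranial motor axons, precerebellar neurons, neural crest cells and cerebellar granule cell precursors. The 31 genes described here are the 20 semaphorins, 9 plexins and 2 neuropilins listed by mouse symbol. All 31 were found by symbol among the 43346 Ensembl genes of both deposited gene tables.

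RNA came from hindbrain of B6NCrl mouse embryos at embryonic day 12.5 (e12.5), in 1 group of 2 biological replicates with no altered allele and no treatment named in the labels. Replicate 1 pooled 120 embryos and replicate 2 pooled 88 embryos, of both sexes. RNA above 200 nt was extracted, 10 ng entered each library, and external ERCC spike-in RNAs were added. With a single group, every p-value below compares these 2 libraries and no conditions, and every SD is over 2 libraries.

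The libraries held 31633169 and 29766460 expected counts, of which spike-ins took 3.41% and 4.36%. At this depth, 3 counts on a transcript of 1 kb corresponded to 0.158 and 0.171 TPM (a level per transcript length, scaled to the same fixed total in each library). Spike-ins took 8.39% and 10.9% of that TPM total. The 4 hindbrain markers examined were all at 1 TPM or more in both libraries. The most abundant hindbrain markers were Meis1, at 142 and 166 TPM, and Hoxb5, at 60.6 and 102 TPM. RNA of neighbouring tissues was present and unequal between the pools. The 8 skeletal muscle markers summed to 62.3 TPM in the first pool and to 294 TPM in the second. The 7 mesenchyme and meninges markers summed to 1393 and 1809 TPM, and the 4 epithelial and otic markers to 330.4 and 155 TPM. No gene of these 3 lists was at 0.

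Taking 1 TPM or more in both libraries as detected, 28 of the 31 genes were detected, against 63.0% of the 21474 protein-coding genes. The 3 that were not were Sema7a, Sema3g and Plxnb3. All of the 31 had counts in both libraries. Their levels ranged from Plxnb2 at 128 ± 3.85 TPM (SD, n = 2) down to Plxnb3 at 0.18 ± 0.03 TPM. The median semaphorin was at 11.65 ± 0.41 TPM, the median plexin at 24.4 ± 2.37 TPM and the median neuropilin at 31.5 ± 2.65 TPM. On the log2(TPM + 1) scale the median plexin was above the median semaphorin by 0.97 in replicate 1 and by 1.10 in replicate 2. The libraries agreed closely for most genes. The coefficient of variation was 10% or less for 22 of the 31 and above 20% for Sema3c and Sema3g.

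**Figure D1:**
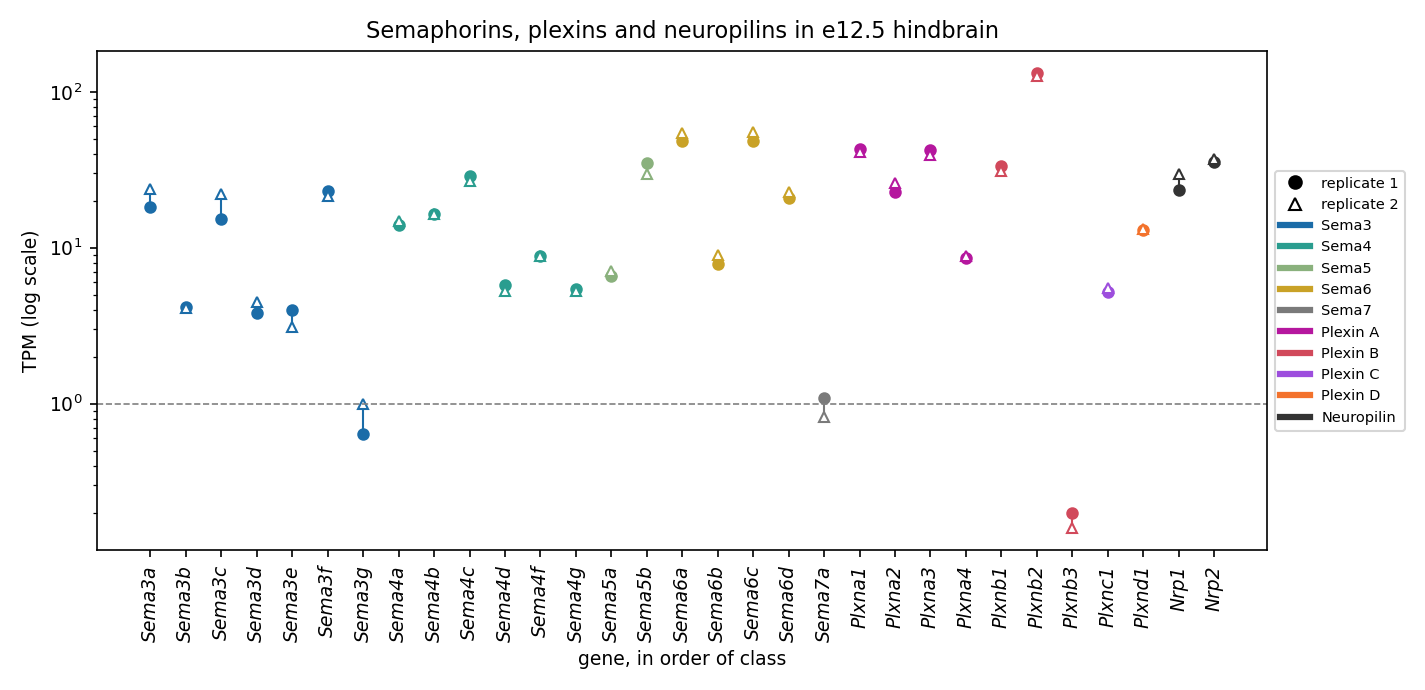
TPM of each gene on a log scale, in order of class, with a filled circle for replicate 1, an open triangle for replicate 2 and a line joining them; the dashed line marks 1 TPM. Plxnb2 stands at the top at 131 and 126 TPM, its class neighbour Plxnb3 at the bottom at 0.20 and 0.16 TPM, and the pool-to-pool gaps are wide for Sema3c and Sema3g.

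The plexins, the receptors, spanned a wider range of levels than the semaphorins or the neuropilins. Plxnb2, a class B plexin known from mouse mutants to act in cerebellar granule cell precursors and in neural tube closure, lies on the minus strand at chr15:89155549-89180788 (mm10). Its level was 131 TPM in replicate 1 against 126 TPM in replicate 2, from 9352 and 8694 counts. It alone held 43.5% ± 0.40 of the summed plexin TPM, and 91.1% of detected coding genes lay below it. Plxnb1, the receptor of Sema4D, was at 33.65 and 31.1 TPM.

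The third class B plexin, Plxnb3, at chrX:73757090-73772514 on the plus strand, was at 0.20 and 0.16 TPM, from 20 and 15 counts. That was above the level of 3 counts for its length, 0.030 and 0.032 TPM, yet the lowest of the 31 genes. These sister receptors thus stood at opposite ends of the order. Their upstream sequence is shown because the contrast between them is the widest in the family. Each line gives the 250 bases before the RefSeq start (GRCm38.p6), in transcript direction, with every CG in capitals.
Plxnb2 (chr15:89180789-89181038, minus strand): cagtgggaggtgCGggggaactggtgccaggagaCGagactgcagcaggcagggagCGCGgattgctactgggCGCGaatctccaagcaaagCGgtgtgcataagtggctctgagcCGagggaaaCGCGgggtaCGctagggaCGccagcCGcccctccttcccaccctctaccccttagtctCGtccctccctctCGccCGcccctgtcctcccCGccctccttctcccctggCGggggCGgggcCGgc
Plxnb3 (chrX:73756853-73757102, plus strand): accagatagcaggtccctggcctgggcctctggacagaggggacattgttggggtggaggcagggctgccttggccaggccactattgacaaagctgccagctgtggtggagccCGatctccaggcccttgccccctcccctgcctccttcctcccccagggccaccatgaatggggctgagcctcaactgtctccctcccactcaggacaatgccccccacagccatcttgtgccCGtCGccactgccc

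The motif CG reads the same on both strands. It occurs 20 times in the Plxnb2 window and 3 times in the Plxnb3 window. Over all 32851 starts in the table the median was 6, 92.1% held at least 1 CG, 17.9% held as many as Plxnb2 or more and 37.8% held as few as Plxnb3 or fewer. Among the 26 of the 31 genes with a start in the table the median was 15.5, with a range from 1 to 39. These counts describe the windows only.

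The class A plexins, which signal for class 3 semaphorins with neuropilins and bind class 6 semaphorins directly, were more even. Plxna1 was at 43.2 and 41.3 TPM and Plxna3 at 42.1 and 39.1 TPM, and the ranges of these neighbours in the order overlapped. On protein-coding transcripts alone they were apart, with Plxna1 still at 43.2 and 41.3 TPM and Plxna3 at 20.6 and 22.3 TPM. Plxna2, a receptor of Sema6A in mouse cerebellum, was at 22.7 and 26.1 TPM. Plxna4 was the lowest of the class at 8.58 and 8.91 TPM. Plxnd1, the direct receptor of Sema3E and a known endothelial gene, was at 12.9 and 13.1 TPM. Plxnc1, the receptor of Sema7A, was at 5.22 and 5.51 TPM.

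Which plexin class was higher depended on how the members were averaged. Class B summed to 164.9 and 157 TPM and class A to 117 and 115 TPM, so that the class B sum was higher in both libraries. The mean log2(TPM + 1) was instead higher for class A, by 0.59 ± 0.07, because it weights each member alike and Plxnb3 is near 0. With the members averaging at least 1 TPM, which removes Plxnb3 alone, the class A minus class B difference was -1.35.

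Of the neuropilins, Nrp2 (chr1:62703285-62818695, plus strand), the co-receptor of Sema3F and of a vascular growth factor, was at 35.6 and 36.95 TPM. Nrp1 (chr8:128358604-128503363, plus strand), the co-receptor of Sema3A and of VEGF, was at 23.6 and 29.7 TPM. Nrp2 was above Nrp1 in both libraries, and their ranges did not overlap. TPM divides by length, and the only Nrp1 transcript has 5907 nt as deposited and 3597 nt in GENCODE M21. Whether this order holds with the other length was not tested.

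The membrane-bound class 6 semaphorins, which bind class A plexins, had the highest sum of any semaphorin class, 125 and 141 TPM, or 40.8% ± 1.71 of all semaphorin TPM. On coding transcripts alone the lead was small, with 70.4 and 79.8 TPM for class 6 against 65.3 and 69.15 TPM for class 4. Sema6c (chr3:95160457-95174024, plus strand) was at 48.0 and 55.2 TPM. Sema6a, which steers granule cell migration in mouse cerebellum, was at 48.5 and 54.4 TPM and could not be separated from Sema6c. Sema6d, a ligand of Plxna1, was at 20.7 and 22.9 TPM, and Sema6b, a ligand of Plxna4, at 7.83 and 8.99 TPM.

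The secreted class 3 semaphorins summed to 69.1 and 80.3 TPM and split into a higher and a lower set. Sema3f, a ligand of Nrp2, was at 23.0 and 21.6 TPM. Sema3a, the prototype axon repellent acting through Nrp1, was at 18.3 and 23.8 TPM, and Sema3c, known for guiding neural crest cells in the heart, at 15.25 and 22.2 TPM. The ranges of these 3 genes overlapped. Sema3d, at 3.83 and 4.47 TPM, Sema3b, at 4.16 and 4.08 TPM, and Sema3e, at 3.98 and 3.08 TPM, formed the lower set. Sema3g, a ligand of Nrp2, reached 0.64 and 1.00 TPM from 54 and 78 counts.

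Position along chromosome 5 did not sort the class 3 genes located there by level. Sema3d (chr5:12383385-12588948), Sema3a (chr5:13125414-13602565), Sema3e (chr5:14025276-14256689) and Sema3c (chr5:17574281-17730268) lie in this order on its plus strand. In that order the mean levels were 4.15, 21.05, 3.53 and 18.7 TPM. Low and high genes thus alternated among these class 3 genes.

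Class 4 semaphorins, membrane proteins that bind mainly class B plexins, summed to 79.3 and 77.7 TPM. Sema4c, a ligand of Plxnb2, was the highest at 29.0 and 26.9 TPM, followed by Sema4b at 16.4 and 16.4 TPM and Sema4a at 13.9 and 14.9 TPM. Sema4f was at 8.80 TPM in both libraries. Sema4d, the ligand of Plxnb1, at 5.75 and 5.31 TPM, and Sema4g, a ligand of Plxnb2, at 5.43 and 5.30 TPM, were the lowest of the class.

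Class 5 semaphorins carry thrombospondin repeats and act as repellents or attractants depending on the setting. Sema5b was at 35.0 and 29.65 TPM and Sema5a at 6.60 and 7.09 TPM, with no overlap. Sema7a, the lipid-anchored semaphorin that binds Plxnc1 and integrins, was at 1.09 and 0.82 TPM, from 66 and 46 counts.

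**Figure D2:**
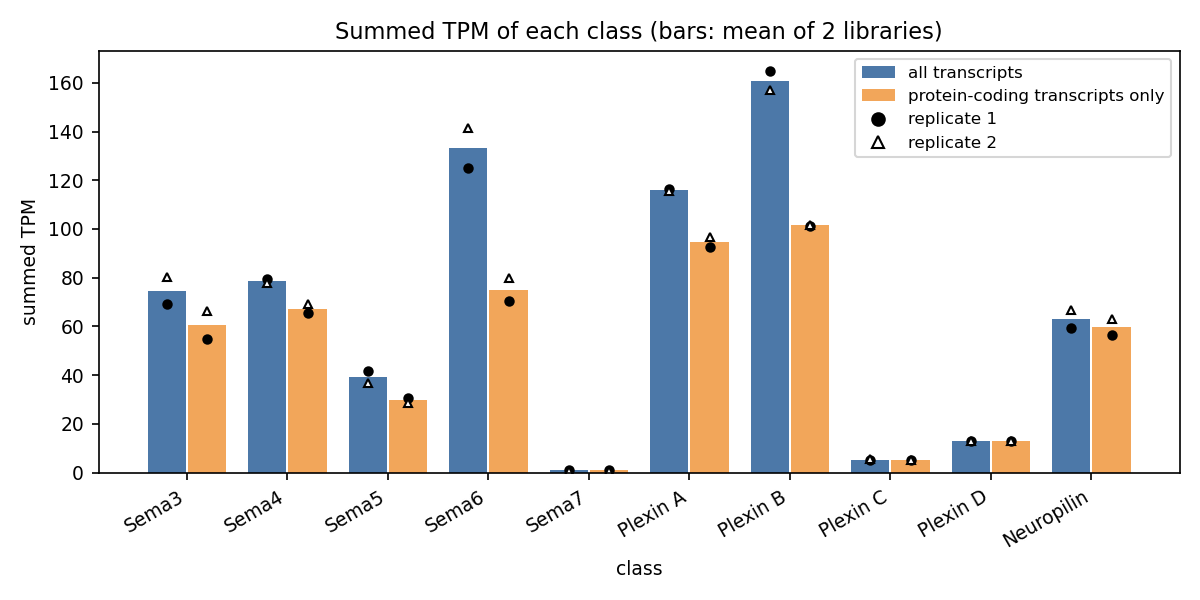
Summed TPM of each class, for all transcripts and for protein-coding transcripts only; bars are means of 2 libraries, circles replicate 1 and triangles replicate 2. Class 6 falls from 133 to 75.1 TPM and class B plexins from 161 to 101.5 TPM when other transcript types are left out, while neuropilins change little, from 62.9 to 59.8 TPM.

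In the full order of mean TPM, 16 of the 30 neighbouring pairs had overlapping ranges and could not be ranked beyond the spread between libraries. The unseparated stretch was longest from Sema4c through Nrp1, Plxna2, Sema3f, Sema6d, Sema3a and Sema3c to Sema4b, between 28.0 and 16.4 TPM on average. Another ran from Sema4f through Plxna4 to Sema6b. Plxnb2, Nrp2, Sema4a, Plxnd1, Sema5a, Sema3e and Plxnb3 did not overlap either neighbour.

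Levels of known ligand and receptor pairs were then set side by side, as ratios of TPM, which is per length. These are ratios of mRNA over the whole tissue and do not say that ligand and receptor were made in the same or in adjacent cells. Sema3a was at 0.77 and 0.80 of the level of Nrp1 in replicates 1 and 2, and Sema3f at 0.65 and 0.58 of the level of Nrp2. Sema4d was at 0.17 of the level of Plxnb1 in both, and Sema4c at 0.22 and 0.21 of the level of Plxnb2. In these pairs the receptor was the more abundant partner. On protein-coding transcripts alone Sema4c was at 0.37 and 0.35 of Plxnb2, which kept that direction.

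The same held for Sema3e, at 0.31 and 0.23 of Plxnd1, for Sema7a, at 0.21 and 0.15 of Plxnc1, and for Sema6d, at 0.48 and 0.56 of Plxna1. Sema5b was at 0.83 and 0.76 of Plxna3, but on coding transcripts at 1.17 and 0.96, where neither was the more abundant in both libraries. The ligand was the more abundant partner for Sema6a, which was 2.13 and 2.08 times Plxna2 and 5.65 and 6.10 times Plxna4. On coding transcripts these ratios were smaller, 1.09 and 1.16 for Plxna2 and 2.55 and 3.14 for Plxna4. The ligand was also the more abundant for Sema5a, at 33.0 and 44.3 times Plxnb3, or 94.3 and 142 times on coding transcripts, ratios that rest on the 20 and 15 counts of that receptor.

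Gene totals hid large differences in transcript type. Of the 28 detected genes, 24 have several annotated transcripts, and the same transcript was the most abundant in both libraries for 21 of them, against 90.6% of 9860 coding genes selected in the same way, so the count is near the background. The 3 exceptions were Sema4c, Sema4g and Sema6a. The median share of TPM in protein-coding transcripts was 83.2% and 84.4% for the 24 genes and 90.9% and 91.4% for all 9860. In none of the 24 was the coding share under 50% in both libraries, against 9.54% of all. It was under 50% in 1 library for Sema6a (45.02% and 51.4%), Sema6c (51.7% and 45.4%) and Plxna3 (49.0% and 57.0%).

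Transcripts annotated as retaining an intron held 10% or more of TPM in both libraries in 9 of the 24 genes, against 24.5% of all. These were Sema3c, Sema3e, Sema4a, Sema4b, Sema5b, Sema6a, Sema6c, Sema6d and Plxna3. Retained-intron transcripts took 55.0% and 48.6% of the TPM of Sema6a, and 49.9% and 41.1% of that of Plxna3. By counts, which are not divided by length, coding transcripts held 64.7% and 68.6% of Sema6a and 84.6% and 91.0% of Plxna3. Transcripts annotated for nonsense-mediated decay (NMD), in which an early stop codon marks the RNA for degradation, held 10% or more in both libraries in 4 genes, against 7.48% of all. They were Sema3b, Sema3f, Sema4g and Sema6c.

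**Figure D3:**
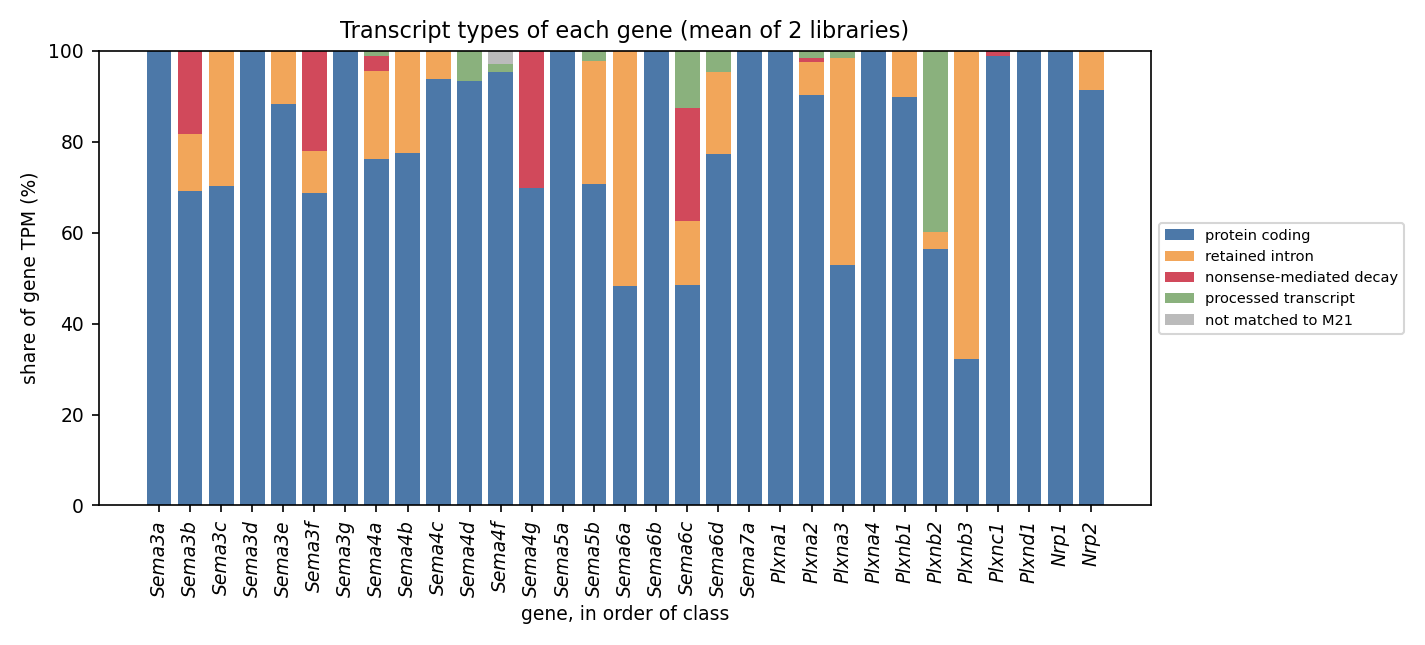
Share of each gene's TPM by annotated transcript type, as the mean of 2 libraries. The 6 genes with 1 annotated transcript, Nrp1 and Plxna4 among them, are wholly protein coding by annotation. So are Plxna1 and Sema6b, whose 2 transcripts are both coding. Retained-intron transcripts hold 51.8% of Sema6a and 45.5% of Plxna3, NMD transcripts hold 25.0% of Sema6c, and a processed transcript holds 40.0% of Plxnb2.

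The top rank of Plxnb2 held on coding transcripts, but its lead shrank. An 841-nt transcript without an annotated coding sequence took 53.5 and 49.1 TPM. It did so on 753 and 637 of the 9352 and 8694 counts, since TPM divides by length. In GENCODE M21, where it has 834 nt, its bases all lie within exons of the main coding transcript. Coding transcripts held 72.4 ± 0.98 TPM, or 56.4% ± 2.45 of the TPM and 91.8% ± 0.72 of the counts. Plxnb2 remained the highest of the 31 on coding TPM, and Plxna1 was next at 42.3 ± 1.34 TPM.

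Sema6a and Sema6c fell from ranks 3 and 2 on all transcripts to ranks 8 and 7 on coding transcripts, at 24.9 ± 4.31 and 24.9 ± 0.17 TPM. Plxna3 fell from rank 5 to rank 11, at 21.5 ± 1.19 TPM. The most abundant transcript of Sema6a differed between the libraries. In replicate 1 it was the retained-intron transcript Sema6a-209, with 31.5% against 22.2% in replicate 2. In replicate 2 it was the coding transcript Sema6a-206, with 24.1% against 13.6% in replicate 1.

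The more abundant NMD transcript of Sema6c, Sema6c-212, held 19.8% and 21.05% of the TPM of the gene, and all its NMD transcripts held 22.0% and 27.9%. Its sequence is shown because the early stop can be read directly from it. Of the 142 bases of this transcript within introns of Sema6c-201, 46 lengthen 1 exon and the others lie elsewhere. The reading frame meets a stop codon after 15 of the 46 bases. The coding sequence is therefore 372 bases in place of 2793 in Sema6c-201. The stretch begins with the last 21 bases shared by both transcripts, and the capitals mark the stop.
Sema6c-212 (chr3:95167660-95167698, plus strand, mm10): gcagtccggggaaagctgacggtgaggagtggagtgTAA

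Alternative coding sequence was in use in Nrp2, Sema6d and Sema3f, given here as shares of coding TPM. The last coding exon of Nrp2 comes in a proximal form (chr1:62795709-62795986) and a distal form (chr1:62815333-62815634), which give the receptor different cytoplasmic tails, known as the b and a forms. The proximal exon held 42.0% and 38.1% of coding TPM, and the distal exon 58.0% and 61.9%. The distal form was thus the more abundant in both libraries, at 60.0% ± 2.77.

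The coding ends are shown because they set the tail that meets cytoplasmic partners, and the Nrp1 end is set beside them. In each line the capitals mark the last 9 coding bases, before the stop codon (mm10, plus strand).
Nrp1 (chr8:128502767-128502814): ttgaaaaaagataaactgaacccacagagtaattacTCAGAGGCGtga
Nrp2, distal end (chr1:62815590-62815637): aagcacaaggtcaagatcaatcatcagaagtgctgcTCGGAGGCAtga
Nrp2, proximal end (chr1:62795942-62795989): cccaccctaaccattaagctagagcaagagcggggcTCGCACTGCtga

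The distal Nrp2 end shares 7 of these 9 bases with Nrp1, and the proximal end shares 3 of 9 with Nrp1. Over the last 45 coding bases, 24 were the same between Nrp1 and the distal end and 10 between Nrp1 and the proximal end. The end of Nrp1 is known to bind the adaptor protein encoded by Gipc1, which was at 155 and 151 TPM. Binding was not measured here.

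A further 15 bases at the end of an Nrp2 exon (chr1:62786302-62786316) were included in 41.4% and 35.9% of coding TPM. A 51-base cassette exon (chr1:62812534-62812584), found only with the distal end in the annotation, was included in 11.5% and 13.3%. The shorter form was therefore the more abundant at both sites. The first line shows the extension in capitals after the shared 21 bases, and the second the cassette exon.
Nrp2 extension (chr1:62786281-62786316): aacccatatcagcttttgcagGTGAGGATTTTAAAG
Nrp2 cassette exon (chr1:62812534-62812584): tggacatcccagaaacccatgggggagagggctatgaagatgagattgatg

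Sema6d varied at 3 places within 1 stretch of its coding sequence. A 39-base extension (chr2:124660244-124660282) was included in 10.4% and 11.5% of coding TPM. A 57-base cassette exon (chr2:124660705-124660761) was included in 48.8% and 42.3%, and a 168-base cassette exon (chr2:124662204-124662371) in 50.8% and 45.6%. No single form dominated: the most abundant transcript, Sema6d-208, which has none of the 3 stretches, held 28.3% and 29.2% of all Sema6d TPM. In replicate 1 it was nearly matched by Sema6d-206, with both cassette exons, at 28.1%, and by the deposited posterior mean the top transcript of Sema6d differed between the libraries. The sequences are shown since they are the parts by which the forms differ.
Sema6d extension: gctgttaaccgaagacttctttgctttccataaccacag
Sema6d cassette exon of 57 bases: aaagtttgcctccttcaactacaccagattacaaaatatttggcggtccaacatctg
Sema6d cassette exon of 168 bases: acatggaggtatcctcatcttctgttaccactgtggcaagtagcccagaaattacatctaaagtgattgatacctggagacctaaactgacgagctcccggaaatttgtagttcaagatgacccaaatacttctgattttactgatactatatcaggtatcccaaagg

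In Sema3f, a 93-base cassette exon (chr9:107691356-107691448, minus strand) was included in 28.0% and 21.3% of coding TPM. It is a multiple of 3 bases long, as are the Nrp2 extension and cassette exon and the Sema6d stretches, so the reading frame continues through it. The form without the exon, Sema3f-201, was the most abundant transcript of the gene, with 47.1% and 49.3% of its TPM. The coding TPM counted as lacking the exon also includes the 685-nt transcript Sema3f-206, at 0 and 1.17 TPM. Whether Sema3f-206 spans the site was not checked, so the fall from 28.0% to 21.3% is uncertain.
Sema3f cassette exon: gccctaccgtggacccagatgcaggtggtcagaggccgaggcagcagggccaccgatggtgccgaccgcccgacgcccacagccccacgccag

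**Figure D4:**
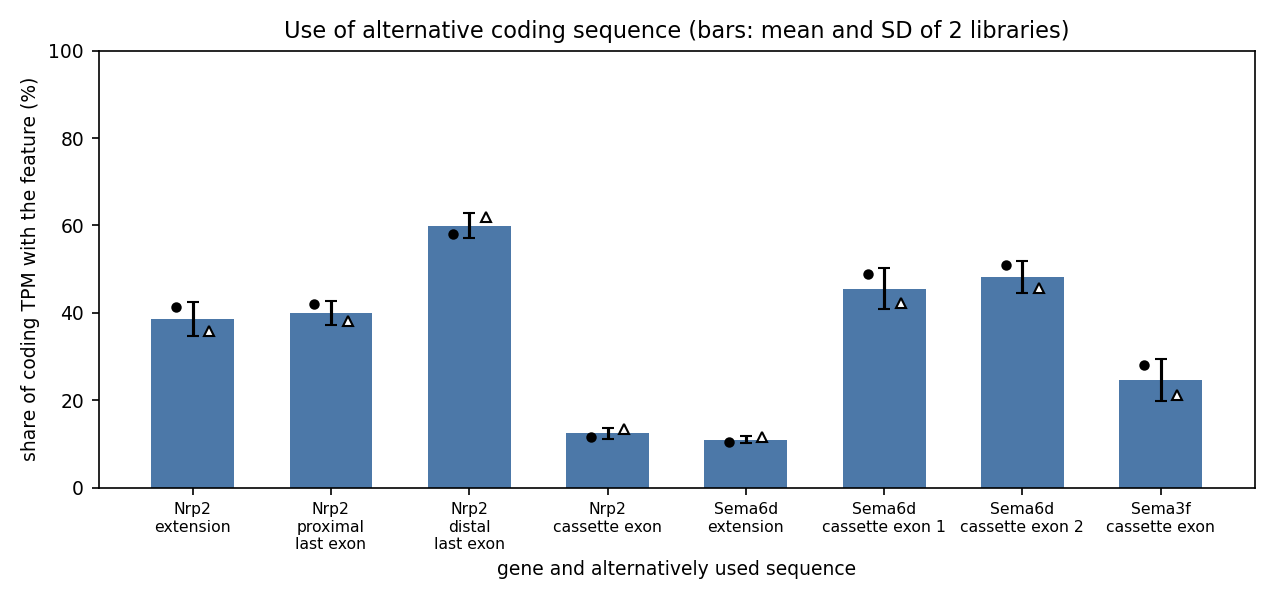
Share of coding TPM that includes each alternative stretch, for Nrp2, Sema6d and Sema3f; bars are means with the SD of 2 libraries, circles replicate 1 and triangles replicate 2. The distal last exon of Nrp2 is above the proximal one in both libraries (60.0% against 40.0% on average), and the 2 Sema6d cassette exons lie close together at 45.6% and 48.2%.

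Between the 2 pools, 11 of the 31 genes differed beyond counting error (two-sided exact binomial test, Benjamini-Hochberg over all genes tested), against 20.4% of the 19210 genes tested. The share called rises with depth: among genes with at least 500 summed counts it was 27.1%, against 11 of 27 of these genes. Of the 11, 7 were higher in replicate 2, against 10.7% of all genes, and 4 were lower, against 9.67%. The median log2 ratio of replicate 2 over 1 was 0.03 over the 31 genes and 0.00 over all genes. With an edgeR exact test that allows all genes the same variation between pools, none of the 31 passed, against 1.57% of all (0.942% higher and 0.625% lower in replicate 2), and 3 had an unadjusted p under 0.05. The calls therefore describe the libraries at hand, and the edgeR test did not set them apart from the variation between pools.

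The genes higher in replicate 2 were led by Sema3c and Sema3a. Sema3c had 1257 counts in replicate 1 and 1707 in replicate 2, a log2 ratio of 0.54 (95% counting interval 0.44 to 0.65; adjusted p = 3.09e-22 by the binomial test and 0.185 by edgeR). Sema3a had 1847 and 2314 counts, a log2 ratio of 0.43 (0.34 to 0.52; adjusted p = 2.25e-19 and 0.544). Their co-receptor Nrp1 had 2598 and 3019 counts, a log2 ratio of 0.32. Plxna2, Sema6a, Sema6c and Sema6d followed, with log2 ratios of 0.24, 0.20, 0.16 and 0.14. In bulk tissue, more cells of a type and more RNA per cell cannot be told apart.

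The genes lower in replicate 2 were Sema3e, Sema5b, Plxnb1 and Plxna1. Sema3e had 495 and 351 counts, a log2 ratio of -0.39 (-0.60 to -0.19; adjusted p = 0.00101 by the binomial test and 0.827 by edgeR). Sema5b had 2281 and 1849 counts, a log2 ratio of -0.20, and Plxnb1 and Plxna1 had log2 ratios of -0.10 and -0.07. The call of Plxna1 was near the threshold (adjusted p = 0.0443 by the binomial test). Sema3c and Sema3e, both on chromosome 5, thus differed in opposite directions. Plxnb2, the most deeply counted of the 31, had a log2 ratio of 0.00 with an interval from -0.05 to 0.04.

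Marker genes also differed between the pools. By the binomial test, 10.7% of all genes were higher and 9.67% were lower in replicate 2. Of genes with at least 500 summed counts, 27.1% were called in either direction. By edgeR, 0.942% of all genes were higher and 0.625% were lower. All 4 hindbrain markers were higher in replicate 2 by the binomial test, with a median log2 ratio of 0.35. Hoxb5 alone of them passed by edgeR too, with a log2 ratio of 0.73 and an adjusted p of 0.0112 by that test. Of the 6 progenitor markers, 3 were lower by the binomial test, among them Fabp7 and Vim, with log2 ratios of -0.20 and -0.10. Of the 5 neuron markers, 3 were higher, among them Ina, with a log2 ratio of 0.10, and Tubb3 was lower, at -0.04. The median log2 ratio was -0.11 for the progenitor list and 0.10 for the neuron list. Counts of these named genes are high (28721 and 26076 for Tubb3), so small ratios pass the binomial test. No progenitor or neuron marker passed by edgeR. All 7 mesenchyme and meninges markers were higher in replicate 2 by the binomial test, with a median log2 ratio of 0.29, and none passed by edgeR. The most abundant of them were Col3a1, at 448 and 603 TPM, and Col1a1, at 414 and 553 TPM. All 8 skeletal muscle markers (Actc1, Myl1, Acta1, Myog, Tnnc2, Myh3, Ttn and Myod1) were higher by both tests, with a median log2 ratio of 2.25. All 4 epithelial and otic markers were lower by the binomial test and 2 of them, Oc90 and Epcam, by both. Of the 7 endothelial markers, Cdh5 alone was called, and only by the binomial test, while the most abundant, Cldn5 and Esam, were at 24.5 and 28.4 TPM and at 25.8 and 26.4 TPM. The part of these tissues and cell types in the differences of Sema3c, Sema3a, Nrp1 and the other genes was not tested.

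**Figure D5:**
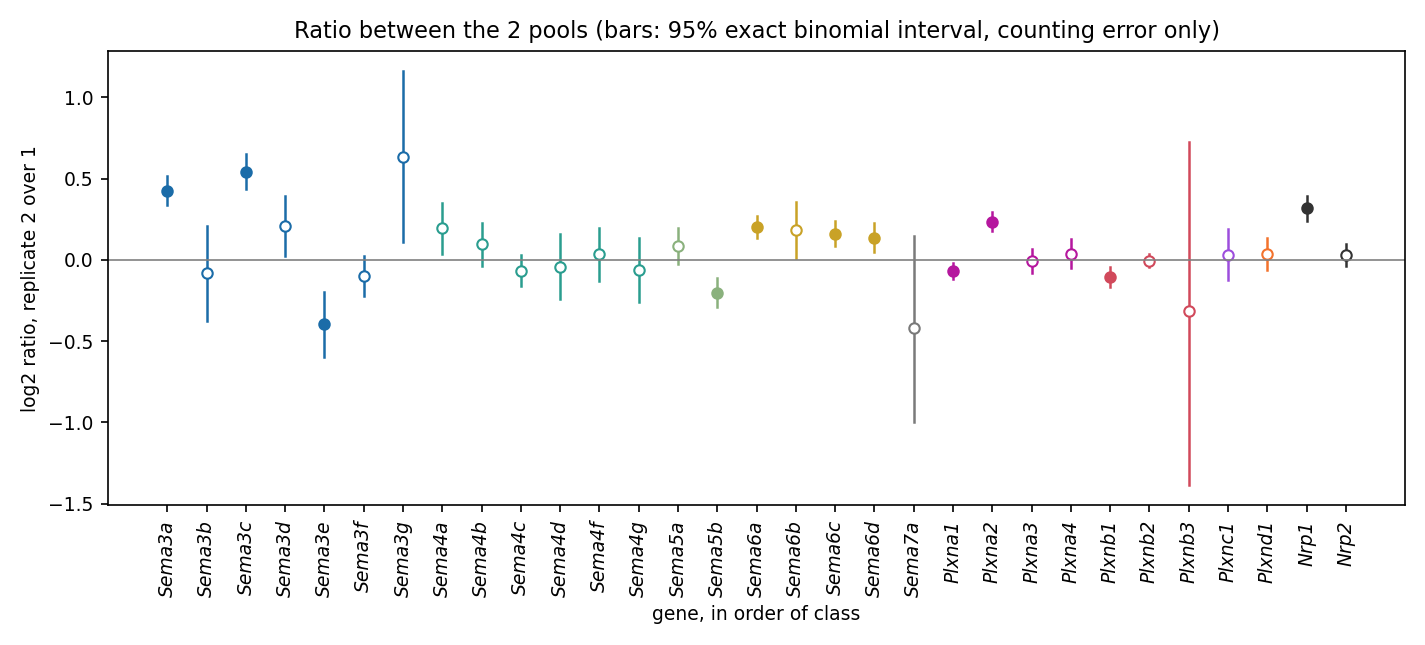
Log2 ratio of replicate 2 over replicate 1 for each gene, with the 95% exact binomial interval, which covers counting error only; filled circles passed the binomial test. Sema3c and Sema3a stand highest among the filled points at 0.54 and 0.43, Sema3e lowest at -0.39, and the widest interval is that of Plxnb3, from -1.38 to 0.73.

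Partners outside the family were read from lists of 15 co-receptors and processing enzymes and 28 cytoplasmic effectors. Of the co-receptors, 14 were at 1 TPM or more in both libraries. Itgb1, the integrin subunit bound by Sema7A, was the highest at 149 and 164 TPM, followed by the adhesion molecules Cntn2, at 68.4 and 71.05 TPM, L1cam, at 37.3 and 47.3 TPM, and Nrcam, at 36.6 and 39.8 TPM. L1cam and Nrcam are known to join Nrp1 and Nrp2 complexes. Timd2, an immune receptor of Sema4A, had 0 counts in both libraries, which allows up to 3 counts in each.

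Between the pools, 6 of the 14 co-receptors tested were higher and 1 was lower in replicate 2 by the binomial test, against 10.7% and 9.67% of all genes. Among all genes with at least 500 summed counts, 27.1% were called in either direction. The lower gene was Cd72, a receptor of Sema4D on lymphocytes, at 3.12 and 1.61 TPM and with a log2 ratio of -1.05. It passed both tests, with adjusted p = 7.46e-05 by the binomial test and 0.0304 by edgeR. Its expected counts are not whole, so some of its fragments were divided with other genes and its level is uncertain.

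Of the effectors, 27 of 28 were at 1 TPM or more in both libraries, with a median of 43.9 ± 0.71 TPM. Cfl1, which encodes the actin-severing protein cofilin, was the highest at 2108 and 2168 TPM. Next came genes of the collapsin response mediator proteins, which bind tubulin and carry the Sema3A signal: Dpysl2 at 612 and 746 TPM, Dpysl3 at 420.0 and 462 TPM and Crmp1 at 393 and 433 TPM. Mical2, of the MICAL family of actin-oxidising enzymes, was the lowest at 0.89 and 1.30 TPM. By the binomial test 8 of the 28 effectors were higher and 1 was lower in replicate 2, against 10.7% and 9.67% of all genes. Among all genes with at least 500 summed counts, a depth that Mical2 and some other effectors did not reach, 27.1% were called in either direction. None of the effectors passed by edgeR.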

How the data were processed

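Total RNA from hindbrain was measured in 2 libraries on mm10 with GENCODE M4, per the labels and notes deposited with the samples; the labels and headers name no aligner, quantifier or strandedness. The authors deposited expected counts, which need not be whole, TPM and FPKM per gene and transcript, per the file headers. The percent of each gene's TPM in each transcript was also deposited. From these, levels, class sums and shares were computed per library. Names, transcript types and coordinates come from GENCODE M21, matched by Ensembl ID. Upstream sequence is from RefSeq (GRCm38.p6) and other sequence from M21 transcripts. The Nrp2, Sema6c, Sema6d and Sema3f transcripts compared had the same length in both versions. The Nrp1 transcript (5907 nt as deposited, 3597 nt in M21) did not. Nor did the Plxnb2 processed transcript (841 and 834 nt) and the main Plxnb2 coding transcript (6377 and 6497 nt).

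Expected counts were rounded. Genes with a summed count of 10 or more were tested between libraries with a two-sided exact binomial test on TMM-scaled sizes (edgeR 4.0.16, R 4.3.3) at an adjusted p of 0.05, without spike-ins; edgeR's exact test with 1 common dispersion, fitted without a group term (coefficient of variation 9.02%), stands beside it. DESeq2 1.42.0 gave alternative size factors. Intervals cover counting error only, and nothing beyond the labels says how far the pools were independent. The genes and lists were chosen with earlier results of these data known. All 31 genes are named; of partner lists, the 4 highest, the lowest and those passing both tests; of each marker list in the text, the 2 highest and those passing both tests, and Cdh5, named after its values were seen. Of the 31 genes, 18 overlap another annotated gene, 12 of them on the opposite strand, and 4 (Plxna1, Plxnb1, Sema4c and Plxna4) had counts that are not whole, so these values are uncertain. Of the partners and markers named, Cd72, Cntn2, Cfl1, Meis1, Ina, Myh3 and Tnnc2 also had such counts, with the same limit.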

Additional observations from a re-analysis of the deposited data

How the results depend on the processing

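No paired analysis was possible because the 2 libraries form 1 group. The 11 calls between pools became 0 with edgeR's exact test. Other scalings and filters gave 10 or 11, and no called gene changed sign. The gene lost was Plxna1, with DESeq2 size factors and without the filter on low counts (adjusted p = 0.0524 and 0.0613 by the binomial test). The same top transcript in both libraries, found for 21 genes, was found for 20 by posterior means. The class A minus class B plexin difference of 0.59 became 1.23 with a pseudocount of 0.1, 0.70 on coding transcripts, and reversed to -1.35 among members averaging at least 1 TPM; the last pair of settings was chosen after seeing the data. The plexin minus semaphorin difference of 1.04 became 0.85 among members averaging at least 1 TPM. Coding transcripts alone gave sums of 60.6 (class 3), 67.2 (class 4), 29.6 (class 5), 75.1 (class 6), 94.5 (class A) and 101.5 (class B) TPM.

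FPKM, on a smaller scale, gave medians of 6.92 (semaphorins), 14.5 (plexins) and 18.7 (neuropilins), and sums of 44.3, 46.6, 23.3, 79.1 and 0.565 for classes 3 to 7, 68.9, 95.55, 3.19 and 7.73 for plexin classes A to D and 37.3 for neuropilins. Rescaling without spike-ins gave medians of 12.9, 27.0 and 34.8 and sums of 82.8, 86.8, 43.3 and 147.6 for classes 3 to 6, 128.4, 178.0, 5.94 and 14.4 for plexins and 69.7 for neuropilins. Posterior means gave a semaphorin median of 12.4, and sums of 82.0 (class 4), 114.0 (class A) and 5.71 (class C). Without 1 replicate, each value is that of the other library. Counts of 20 and 15 limit Plxnb3.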
